A study of Mus musculus with 6 samples.

Results

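The semaphorins, ephrins and Slits, with the plexins, Eph receptors and Robos that bind them, were followed in the postnatal mouse ventricle with and without *Runx1* overexpression. Members were all protein-coding genes in the table whose symbols name a semaphorin of classes 3 to 7, a plexin, an ephrin, an Eph receptor, *Slit1* to *Slit3* or *Robo1* to *Robo3*. The rule found 53 of the 19079 genes in the table. They were 7 secreted class 3 semaphorins, 13 membrane semaphorins, 9 plexins, 8 ephrins, 10 Eph receptors, and 6 Slits and Robos. Of 57 genes with such symbols in the mouse annotation, *Epha5*, *Epha6*, *Epha8* and *Epha10* were not analysed here. The question was whether the RNA of these guidance genes differs in ventricles where part of the cardiomyocytes were made to express the transcription factor RUNX1.

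RNA was sequenced from ventricles of 6 C57BL/6 mice at postnatal day 10. The 4 *Runx1* OE mice carried Myh6-CreER and a Rosa-Runx1 overexpression allele, and the 2 controls carried Myh6-CreER alone. All 6 mice received tamoxifen on postnatal days 0 and 1. The *Myh6* promoter drives the tamoxifen-dependent Cre in cardiomyocytes, so the transgene acts in these cells while the RNA comes from the whole tissue. With this tamoxifen regimen the paper found RUNX1 induced in only part of the cardiomyocytes on average. The sources speak of whole ventricles in one place and of left ventricles in another, and the values given are those of all cells together. Fewer cells of a type and less RNA per cell cannot be told apart in such data.

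Semaphorins are secreted or membrane-bound proteins that signal through plexins, and most class 3 semaphorins need a neuropilin as coreceptor. Ephrins are anchored in the cell membrane and bind Eph receptor tyrosine kinases on neighbouring cells, with signals running into both cells. Slits are secreted proteins that bind Robo receptors. These systems are known for steering growing axons, and in the heart for the outflow tract, the coronary vessels and the pattern of cardiac nerves.

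Values are normalized counts, that is, counts divided by a size factor for each library, and are given as the authors' group means. Over all genes the deposited means sum to 19422828, and no library's own depth can be read from them. Single libraries could not be matched to mice. In their place, limits were computed for the lowest and highest library of each group. They came from the group means and from the total, highest value and geometric mean of the 6 libraries. The limits allow an error of 1% in the group means. A test based on the same quantities gave each log2 ratio of *Runx1* OE to control a standard error (SE), a 95% interval and a p-value, adjusted by the Benjamini-Hochberg method over 15172 genes. Genes with an adjusted p below 0.05 were called.

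*Runx1* itself averaged 16622 normalized counts in the overexpressing mice and 40.2 in the controls, where neither library can exceed 80.3. Its log2 ratio was 8.69 (SE 0.47, adjusted p = 0.0043). *Xist*, the RNA expressed from the inactive X chromosome of females, averaged 4584 in the overexpressing mice and 8.92 in the controls, where neither library can exceed 17.8. The log2 ratio of *Xist* was 9.01 with a wide SE of 1.62 (adjusted p = 0.17), so it was not called. Both sexes were used in the study, and a difference in sex between the groups cannot be told apart from genotype. Of 15172 genes tested, 130 were called higher (0.857%) and 98 were called lower (0.646%). The 6 cardiomyocyte markers (*Myh6*, *Tnnt2*, *Actc1*, *Myl2*, *Ryr2* and *Tnni3*) were detected in both groups. Their sum was 399424 normalized counts with overexpression and 480407 without (log2 ratio −0.27). The log2 ratios of the 6 markers ranged from −0.75 to 0.10. None was called, and *Ryr2* had an unadjusted p under 0.05.

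None of the 47 members tested was called in the quasi-likelihood test with spreads moderated by limma, against the background of 0.857% called higher and 0.646% called lower. The other 6 members, *Sema3e*, *Sema4f*, *Efna3*, *Epha1*, *Slit1* and *Robo3*, had means under the minimum of 10 normalized counts. From the same libraries the paper reported more differentially expressed genes than were called here. The absence of called members therefore holds for the test used here, which had group means and no single libraries. Whether members are among the genes reported by the paper was not examined. The unadjusted p was under 0.05 for 5 of 47 members, *Ephb3*, *Sema3d*, *Ephb1*, *Sema3c* and *Sema3f*, against 12.9% of all tested genes. The group means differed by more than 1.5-fold for 2 members, *Ephb3* and *Ephb1*, against 9.4% of all tested genes. The median log2 ratio was −0.07 for the members, with 19 above 0 and 28 below 0, and 0.01 for all tested genes. The members' log2 ratios ranged from −0.83 to 0.46. Without regard to direction, the median size was 0.17 for the members and 0.16 for all tested genes.

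How small a difference could be seen varied between members. The SE of the log2 ratio ranged from 0.10 to 0.51, with a median of 0.19, and was 0.16 for the median tested gene. The 95% interval lay wholly within a 1.5-fold difference in either direction for 21 of 47 members (44.7%), and for 52.3% of all tested genes. For the other members the interval reached past that size. By role, such narrow intervals were found for 3 of 6 class 3 semaphorins, 6 of 12 membrane semaphorins, 5 of 9 plexins, 4 of 7 ephrins, 3 of 9 Eph receptors, and 0 of 4 Slits and Robos.

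**Figure D1:**
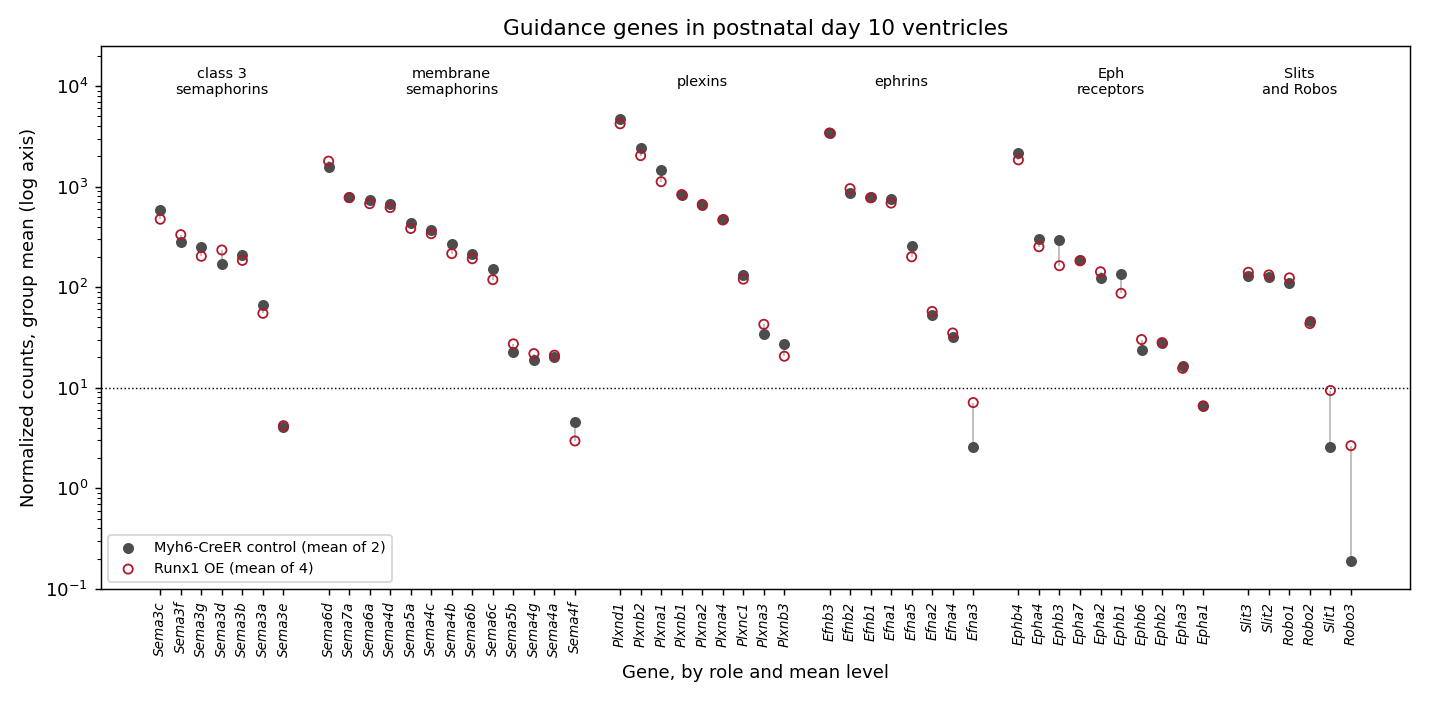
Group means of all 53 members in normalized counts (log axis), ordered by role and by mean level, with filled points for the 2 controls and open points for the 4 *Runx1* OE mice. The dotted line marks the minimum mean of 10 for testing. Most pairs of points nearly coincide, while *Ephb3*, *Ephb1* and *Sema3d* stand apart among the tested members.

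The group limits did not overlap for 5 members. By these limits *Sema3d* and *Sema3f* were higher in every *Runx1* OE library than in either control, a pattern found in 3.35% of all tested genes. By the same limits *Ephb3*, *Ephb1* and *Sema3c* were lower in every *Runx1* OE library than in either control, a pattern found in 5.69% of all tested genes. That is 2 of 47 members (4.26%) higher and 3 of 47 (6.38%) lower, shares close to those backgrounds.

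*Ephb3*, a receptor tyrosine kinase for B-class ephrins, had the lowest ratio and the smallest p of the members. It lies on chromosome 16 from 21023495 to 21042057 on the plus strand (GRCm39). Both control libraries lay between 257 and 318 normalized counts, and all 4 *Runx1* OE libraries between 116 and 221. The means were 291 in control and 163 in *Runx1* OE ventricles, which is 1.78-fold lower in *Runx1* OE. The log2 ratio was −0.83 (SE 0.20, 95% interval −1.28 to −0.39), and the adjusted p of 0.087 missed the threshold. Its highest library was a control, and without it the log2 ratio was −0.69.

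*Ephb1*, a second receptor of the same class, lies on chromosome 9 from 101799327 to 102231898 on the minus strand. Its controls lay between 123 and 142 normalized counts and its *Runx1* OE libraries between 64.9 and 113. The log2 ratio was −0.63 (SE 0.20, 95% interval −1.07 to −0.18, adjusted p = 0.19), or 1.54-fold lower in *Runx1* OE. Of its exon bases, 174 are shared with *Gm57054* on the opposite strand, and no source used here says whether the counting took strand into account.

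*Sema3d*, a secreted semaphorin that in mice takes part in guiding endothelial cells of the pulmonary veins, had the highest ratio of the members tested. It lies on chromosome 5 from 12433124 to 12638929 on the plus strand. Its controls lay between 157 and 187 normalized counts and its *Runx1* OE libraries between 205 and 250. By these limits the groups were fully apart, by a margin that is small beside their levels. The log2 ratio was 0.46 (SE 0.12, 95% interval 0.18 to 0.74, adjusted p = 0.14).

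*Sema3c*, which in mice is needed for division of the cardiac outflow tract, is on the same chromosome from 17779219 to 17935648 on the plus strand. Its controls lay between 550 and 610 normalized counts and its *Runx1* OE libraries between 417 and 539. The log2 ratio was −0.31 (SE 0.11, 95% interval −0.55 to −0.06, adjusted p = 0.26). *Sema3f*, which signals mainly through neuropilin 2, lies on chromosome 9 from 107558698 to 107587674 on the minus strand. Its controls lay between 263 and 298 and its *Runx1* OE libraries between 301 and 353, so the highest control and the lowest *Runx1* OE library may be within a few counts of each other. The log2 ratio was 0.26 (SE 0.11, 95% interval 0.01 to 0.51, adjusted p = 0.37).

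For these 5 members the group means and the deposited total differed by at most 0.11%. That comparison covers the sum only, because opposite errors in both group means would cancel. The separation of the groups rests on the accuracy of each mean, which was not checked. With an allowed error of 2% in the group means it held for *Ephb3*, *Ephb1* and *Sema3d*, and with 5% it held for none.

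**Figure D2:**
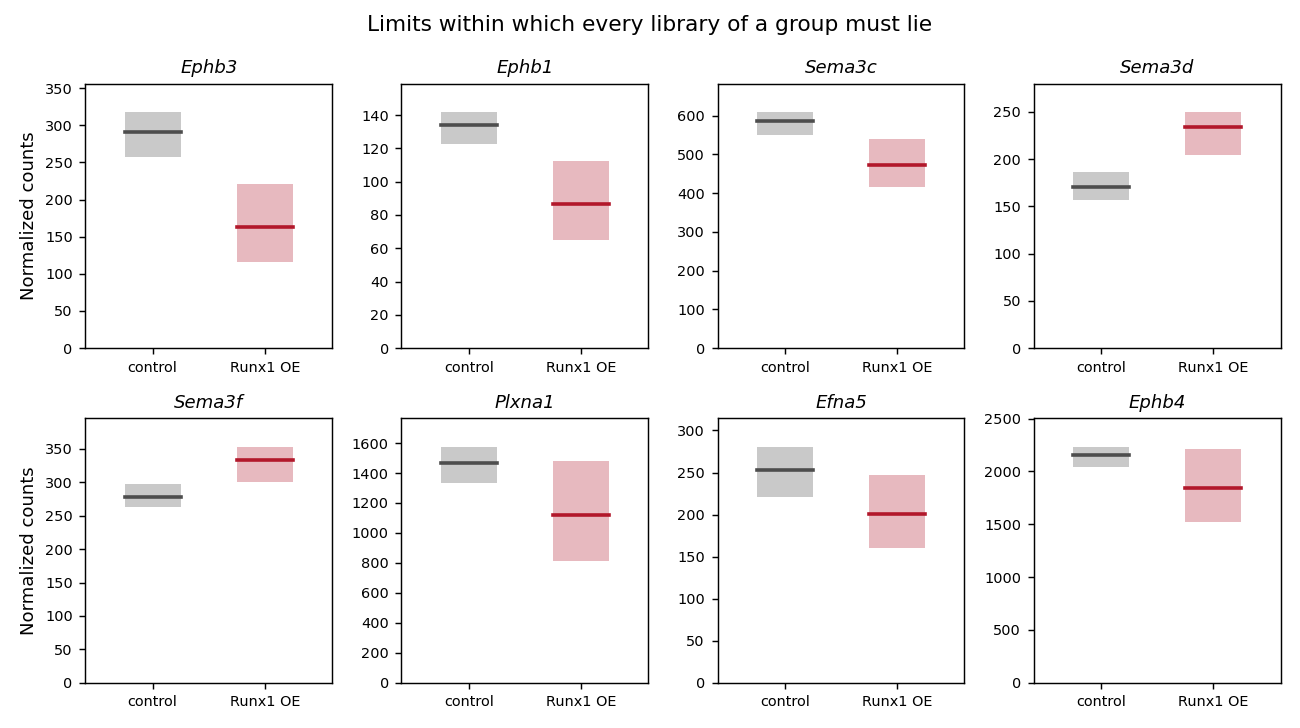
Limits on single libraries in normalized counts for 8 members, with bars from the lowest to the highest value that any library of a group can have and a line at the group mean (2 controls, 4 *Runx1* OE). The bars do not overlap for *Ephb3*, *Ephb1*, *Sema3c*, *Sema3d* and *Sema3f*, and overlap for *Plxna1*, *Efna5* and *Ephb4*.

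Promoter sequences of 4 of these 5 members are shown because RUNX1 is a transcription factor that binds a short motif, and they let its letters be looked for in the genes that stood apart. They run from 250 bases before to 50 bases after the gene start, 5′ to 3′ on the gene's strand, from RefSeq annotation of GRCm38.p6. Capitals mark a match to TGTGGT or TGCGGT on either strand. The windows are chr16:21204545-21204844 (plus strand) for *Ephb3*, chr9:102354644-102354943 (minus strand) for *Ephb1*, chr5:12382916-12383215 (plus strand) for *Sema3d* and chr5:17574566-17574865 (plus strand) for *Sema3c*.
Ephb3: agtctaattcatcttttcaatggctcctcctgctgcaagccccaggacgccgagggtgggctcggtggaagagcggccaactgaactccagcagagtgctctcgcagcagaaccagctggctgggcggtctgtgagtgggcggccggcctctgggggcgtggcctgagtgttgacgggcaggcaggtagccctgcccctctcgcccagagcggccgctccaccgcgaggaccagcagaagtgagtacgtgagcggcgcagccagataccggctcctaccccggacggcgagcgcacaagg
Ephb1: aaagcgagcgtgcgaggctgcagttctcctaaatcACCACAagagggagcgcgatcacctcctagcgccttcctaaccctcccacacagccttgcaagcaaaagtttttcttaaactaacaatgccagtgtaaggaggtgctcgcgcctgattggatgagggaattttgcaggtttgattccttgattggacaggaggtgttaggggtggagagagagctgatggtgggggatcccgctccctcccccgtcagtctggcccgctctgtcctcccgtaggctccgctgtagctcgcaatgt
Sema3d: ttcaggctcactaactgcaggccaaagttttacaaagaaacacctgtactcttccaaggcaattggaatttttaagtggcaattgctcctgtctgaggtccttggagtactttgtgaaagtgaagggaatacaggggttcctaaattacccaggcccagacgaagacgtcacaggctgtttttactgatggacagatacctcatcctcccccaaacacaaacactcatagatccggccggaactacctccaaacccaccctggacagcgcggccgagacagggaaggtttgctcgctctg
Sema3c: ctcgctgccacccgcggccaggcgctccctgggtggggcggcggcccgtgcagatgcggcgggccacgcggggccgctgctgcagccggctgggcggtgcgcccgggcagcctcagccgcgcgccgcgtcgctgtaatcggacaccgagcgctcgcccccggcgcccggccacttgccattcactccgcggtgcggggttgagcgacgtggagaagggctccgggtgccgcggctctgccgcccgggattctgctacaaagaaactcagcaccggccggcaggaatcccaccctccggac
The *Ephb1* window held 1 match, to TGTGGT on the strand opposite to the gene, 215 bases before the start. The other 3 windows held neither motif. Of the 46 members with a RefSeq promoter, 9 had a match at their first listed start (19.6%), and so had 22.5% of 27025 genes. A match describes the letters only and says nothing of binding.

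Among the class 3 semaphorins, 2 of the 6 tested had log2 ratios above 0 and 4 below 0, with a median of −0.21. They had the smallest median coefficient of variation of the roles, 9.06%, against 16.6% for all members. *Sema3c* had means of 586 normalized counts in control and 473 in *Runx1* OE ventricles. *Sema3g*, found mainly in arterial endothelium, had means of 252 and 203 in the same order (log2 ratio −0.32, SE 0.20, adjusted p = 0.58), and its *Runx1* OE libraries may lie anywhere between 141 and 259. *Sema3a*, which in mice patterns the sympathetic nerves of the heart, had means of 65.9 and 54.9 (log2 ratio −0.26, SE 0.21, adjusted p = 0.66). *Sema3b* had means of 207 and 184 (log2 ratio −0.17, SE 0.15). *Sema3e*, the ligand that binds plexin D1 without a neuropilin, was low, at 4.07 normalized counts in controls and 4.19 with overexpression.

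The membrane semaphorins had a median log2 ratio of −0.12 over the 12 tested, with 4 above 0 and 8 below 0. *Sema6d*, a transmembrane ligand of plexin A1 studied in chick heart development, had means of 1576 normalized counts in control and 1788 in *Runx1* OE ventricles (log2 ratio 0.18, SE 0.12, adjusted p = 0.59). *Sema7a*, a lipid-anchored semaphorin that binds integrins and plexin C1, had means of 778 and 775 (log2 ratio −0.005, 95% interval −0.30 to 0.29). *Sema6a* had means of 728 and 676 and *Sema4d*, a ligand of plexin B1, means of 672 and 618. *Sema4b* had a log2 ratio of −0.33 (SE 0.20, adjusted p = 0.56), and its *Runx1* OE limits of 152 to 288 took in the whole control range of 247 to 288. *Sema6c* and *Sema5a* had log2 ratios of −0.34 (SE 0.31) and −0.20 (SE 0.19). *Sema4c* and *Sema6b* had log2 ratios of −0.12 and −0.14 (SE 0.14 for both). *Sema4a*, *Sema4g* and *Sema5b* had means of 18.9 to 27.3 in both groups, and *Sema4f*, too low to test, 4.59 and 2.95.

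Plexins, the semaphorin receptors, had a median log2 ratio of −0.14 over all 9. *Plxnd1*, the plexin of developing vessels, had means of 4744 normalized counts in control and 4204 in *Runx1* OE ventricles (log2 ratio −0.17, SE 0.13, adjusted p = 0.65). *Plxna1*, a receptor for class 3 semaphorins together with neuropilins, was the nearest plexin to the threshold, with means of 1469 and 1118 (log2 ratio −0.39, SE 0.18, adjusted p = 0.39). Its controls lay between 1332 and 1575 and its *Runx1* OE libraries between 812 and 1482, so the groups may overlap. *Plxnb2*, a receptor of class 4 semaphorins, had means of 2423 and 2030 (log2 ratio −0.26, SE 0.17). *Plxnb1*, *Plxna2* and *Plxna4* had log2 ratios of 0.03, 0.02 and −0.03. *Plxnc1*, the receptor of *Sema7a*, had a log2 ratio of −0.14 (SE 0.19). *Plxna3* and *Plxnb3*, both on chromosome X, had means of 20.6 to 42.7 and log2 ratios of 0.32 (SE 0.24) and −0.39 (SE 0.35).

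Ephrins had a median log2 ratio of 0.01 over the 7 tested. *Efnb3*, a transmembrane ephrin, had means of 3387 normalized counts in control and 3410 in *Runx1* OE ventricles (log2 ratio 0.01, SE 0.19, 95% interval −0.44 to 0.46). Its highest library, at 4602 normalized counts, belonged to a *Runx1* OE mouse, and without that library the log2 ratio was −0.17. *Efnb2*, the ephrin of arterial endothelium, had means of 871 and 953 and the smallest SE of the members (log2 ratio 0.13, SE 0.10, 95% interval −0.10 to 0.36). *Efnb1* on chromosome X had means of 781 and 773. *Efna1* had means of 760 and 685 (log2 ratio −0.15, SE 0.12). *Efna5* had the smallest p of the ephrins, with controls between 221 and 281 and *Runx1* OE libraries between 160 and 247 (log2 ratio −0.34, SE 0.17, adjusted p = 0.44). *Efna2* and *Efna4* had means of 32.1 to 57.3, with log2 ratios of 0.13 (SE 0.25) and 0.12 (SE 0.35).

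Eph receptors held both members past 1.5-fold. The median log2 ratio of the 9 tested was −0.07, with 3 above 0 and 6 below 0. *Ephb4*, the receptor for ephrin B2 on venous endothelium, had means of 2158 normalized counts in control and 1843 in *Runx1* OE ventricles (log2 ratio −0.23, SE 0.13, adjusted p = 0.51). *Epha4*, which binds ephrins of both classes, had means of 299 and 252 with wide limits (log2 ratio −0.25, SE 0.27). *Epha2* had means of 123 and 142 (log2 ratio 0.21, SE 0.14) and *Epha7* means of 186 and 183 (log2 ratio −0.03, SE 0.15). *Ephb2*, a B-class receptor known from axon guidance, had means of only 27.6 and 28.1 (log2 ratio 0.02, SE 0.36). *Ephb6*, whose kinase domain is inactive, had the largest SE of the members (log2 ratio 0.36, SE 0.51). *Epha3* had a log2 ratio of −0.07 (SE 0.31), and *Epha1*, too low to test, means of 6.65 and 6.61. The ratios of *Ephb1* and *Ephb3* were not compared with those of *Ephb2* and *Ephb4* by a test.

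The Slits and Robos had a median log2 ratio of 0.10 over the 4 tested, and every one of their intervals reached past 1.5-fold. *Slit3* had means of 129 normalized counts in control and 140 in *Runx1* OE ventricles, with *Runx1* OE libraries anywhere between 46.9 and 219 (log2 ratio 0.12, SE 0.47). *Slit2* had means of 126 and 132 (log2 ratio 0.07, SE 0.23) and its receptor *Robo1* means of 109 and 124 (log2 ratio 0.18, SE 0.21). *Robo2* had means of 46.3 and 43.4 (log2 ratio −0.09, SE 0.28). The remaining Slit and Robo were barely detected. *Slit1* had means of 2.55 and 9.37 normalized counts, and *Robo3*, known from axons that cross the midline, 0.188 and 2.65. When all genes with a geometric mean above 0 were tested, *Slit1* had a log2 ratio of 1.88 (SE 0.44, adjusted p = 0.16), and *Efna3*, at means of 2.55 and 7.12, a log2 ratio of 1.48 (SE 0.49, adjusted p = 0.32). *Robo3* had a geometric mean of 0, so it was listed at 0 in at least 1 library.

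**Figure D3:**
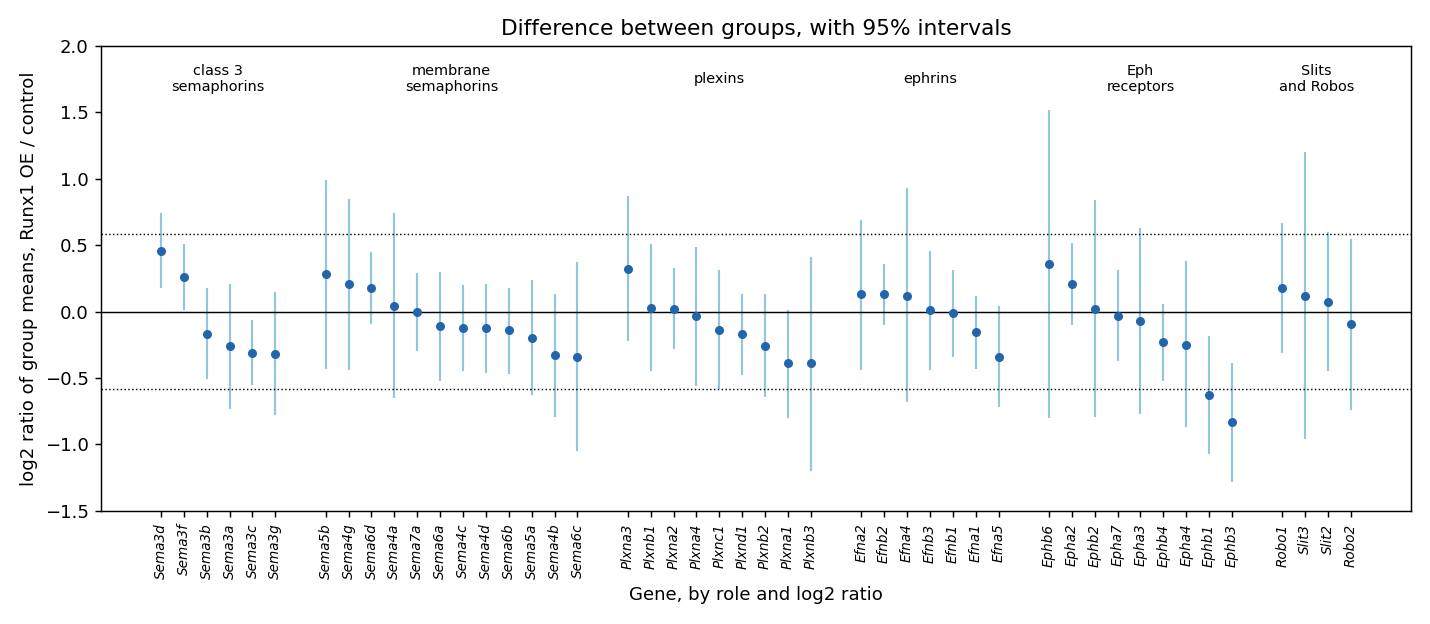
Log2 ratio of group means, *Runx1* OE over control, with 95% intervals for the 47 members tested, by role. The dotted lines mark 1.5-fold in each direction. *Ephb3* and *Ephb1* lie below the lower line, and the intervals of *Ephb3*, *Ephb1*, *Sema3c*, *Sema3d* and *Sema3f* leave out 0.

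Counts grow with transcript length, so the levels of the members were ranked here per kilobase of exon. On that scale *Efnb3* was the most abundant member at 963 normalized counts per kilobase over the 6 libraries, followed by *Plxnd1* at 552, *Ephb4* at 388, *Plxnb2* at 264 and *Sema7a* at 234. *Sema3c* and *Sema3f* had 62.5 and 55.7 per kilobase, *Ephb3* 29.7, *Sema3d* 23.7 and *Ephb1* 14.5. *Robo3* was the lowest at 0.236. The lengths were those of all annotated exons of a gene joined, which can exceed any single transcript. For some members the authors' gene ends differ from this annotation, so values and ranks per kilobase are approximate. The members whose groups did not overlap ranked between 13 and 32 of 53 on this scale, and the most abundant ligand, *Efnb3*, and receptor, *Plxnd1*, were among those whose groups may overlap.

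**Figure D4:**
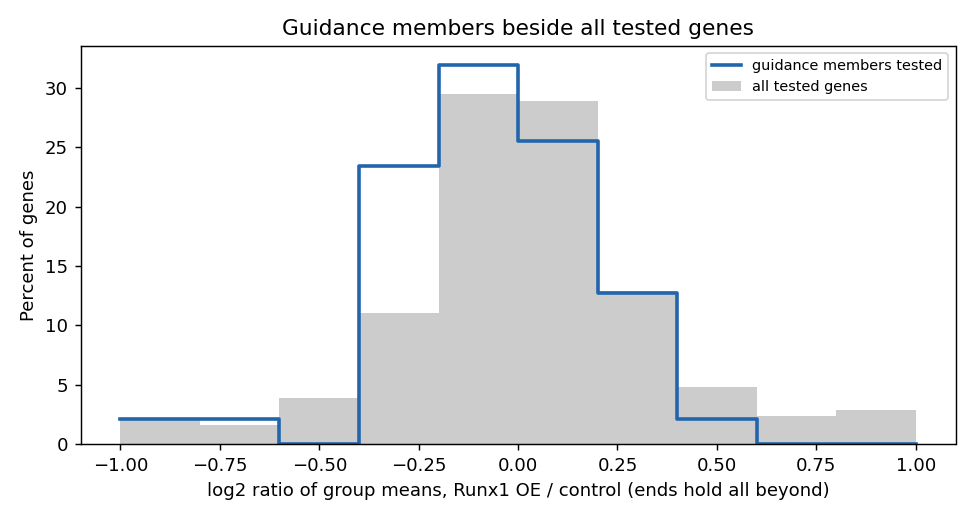
Percent of genes in bins of the log2 ratio, with bars for 15172 tested genes and a line for the 47 members tested, and all values beyond −1 or 1 in the end bins. The members' share between −0.4 and −0.2, the bin with the widest gap, was 23.4% (11 of 47), against 11.05% of all tested genes. No member lay above 0.6, where the bins from 0.6 and from 0.8 held 2.36% and 2.85% of all tested genes. A difference between the distributions was not tested.

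Other genes of these pathways were counted from a list of 55, of which 52 were in the table and 47 were tested. Of these, 1 was called higher and 1 lower (2.13% each), against 0.857% and 0.646% of all tested genes. *Flrt3*, a membrane protein that binds the netrin receptor UNC5B and latrophilins, had means of 5.11 normalized counts in control and 85.6 in *Runx1* OE ventricles (log2 ratio 4.07, SE 0.46, adjusted p = 0.017). *Hjv*, hemojuvelin, a member of the repulsive guidance molecule family that acts in iron metabolism as a coreceptor for bone morphogenetic proteins, fell from 2565 to 927 (log2 ratio −1.47, SE 0.29, adjusted p = 0.047). Over the other fits the adjusted p ranged from 0.0082 to 0.26 for *Flrt3* and from 0.035 to 0.34 for *Hjv*, and both calls were lost without moderation of the spread and with one prior spread for all genes. The *Hjv* call was also lost with robust moderation, with a minimum mean of 50 and with no minimum mean. With 10 normalized counts added to both means the log2 ratio of *Flrt3* was 2.66. Among the 19 coreceptors and other guidance ligands and receptors tested, 4 had an unadjusted p under 0.05, against 12.9% of all tested genes. Over both lists the count was 5 of 47. The 4 were *Flrt3*, *Hjv*, the netrin gene *Ntn1* (log2 ratio 0.70, SE 0.20, adjusted p = 0.19) and the netrin receptor gene *Neo1* (log2 ratio −0.60, SE 0.21, adjusted p = 0.25). The neuropilins that serve the members themselves had intervals that took in 0 and stayed within 1.5-fold. *Nrp1* had means of 1407 and 1349 (log2 ratio −0.06, 95% interval −0.38 to 0.26), *Nrp2* means of 1434 and 1285 (log2 ratio −0.16, 95% interval −0.45 to 0.13). Of 28 cytoplasmic effectors tested, such as the collapsin response mediators and the srGAPs, none was called, 1 (*Mical2*) had an unadjusted p under 0.05 (background 12.9%), and their median log2 ratio was 0.02.

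Markers of the cell types that can carry guidance genes were summed in each group. The sum of the 6 endothelial markers was 17738 normalized counts with overexpression and 19378 without (log2 ratio −0.13). The sums had log2 ratios of 0.04 for 6 fibroblast markers, −0.19 for 6 mural markers, −0.12 for 6 macrophage markers, 0.14 for 4 epicardial markers, 0.14 for 5 erythroid markers, −0.01 for 5 Schwann cell markers and −0.02 for the 4 neuronal markers in the table. The 4 lymphatic endothelial markers had −0.49, with *Prox1*, which cardiomyocytes also express, making up most of the sum. *Uchl1* (log2 ratio 0.14) made up most of the neuronal sum, while *Stmn2* and *Tubb3* had log2 ratios of −0.55 and −0.10. For the 4 atrial markers the sums were 1768 with overexpression and 401 without (log2 ratio 2.14), the widest gap of these lists. *Nppa* made up most of both sums, at 1420 with overexpression and 288 without. By the study's methods the atria were taken off before RNA was extracted, and the source of this gap was not tested. No gene of these lists was called, and each list had 3 to 6 tested genes. The unadjusted p was under 0.05 for *Postn*, *Acta2*, *Csf1r*, *Mrc1*, *Prox1*, *Stmn2* and *Nppa*, and for 12.9% of all tested genes. The part of cell composition in the members' ratios was not tested. Of the 53 members, 26 share exon bases with a gene on the opposite strand, but *Ephb3*, *Sema3c*, *Sema3d* and *Sema3f* do not.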

How the data were processed

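RNA was measured in ventricles of 4 *Runx1* OE and 2 Myh6-CreER mice, grouped by the genotype in the labels. By the study's methods the authors aligned paired reads with STAR to mm39, quantified Ensembl transcripts with Partek E/M, scaled counts by the median ratio and ran DESeq2, whereas the processing notes in the labels list HISAT2 and mm9. The deposited group means are a signal (counts over a size factor per library) and, being fitted means, differ from the deposited total by a median of 0.0496%. The authors' fold changes, their limits, p-values and adjusted p-values in the same table were not used. A separate table has 6 columns of single samples, left out because their names match no label.

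For each gene, a gamma quasi-likelihood model with log link was fitted from the deposited group means and the geometric mean of the 6 samples, with 4 residual degrees of freedom. Spreads were moderated with limma 3.58.1 in R 4.3.3 (squeezeVar, trend on the mean, prior degrees of freedom 4.3), and the F test was two-sided in the log2 ratio. The test covered 15172 genes whose mean reached 10 normalized counts. A further 9 such genes with a geometric mean of 0 were left out, and 4 genes with a negative deviance had it set to 0. The fit and the limits on single libraries were tested on simulated data with exact group means. Nothing says which mice shared a litter, and the p-values measure the spread between these mice only, with 2 controls.

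Coordinates and exon lengths came from GENCODE M39 on GRCm39, and promoters from RefSeq on GRCm38.p6, where 46 of 53 members were matched by symbol. The members and all gene lists were chosen with earlier results of these data known, so their counts are descriptions. In each role the 3 members with the highest mean counts and the 3 with the smallest p are described, and of the other lists the called genes and those a result turns on. Alternatives were other moderation, a Wald test, other minimum means, leaving out chromosomes X and Y, rescaled means, centring, pseudocounts, other folds and tolerances, and leaving out the highest library. Rescaled means and tolerances were chosen after seeing the data.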

Additional observations from a re-analysis of the deposited data

How the results depend on the processing

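No member was called under any of the 8 other fits, and the smallest adjusted p of a member ranged from 0.066 with robust moderation to 0.24 without moderation. The 5 members with an unadjusted p under 0.05 kept it in every fit. *Plxna1* joined them with robust moderation and with rescaled means, and *Slit1* and *Efna3* with no minimum mean. Called genes numbered 228 (130 higher, 98 lower), but 12 without moderation (6 higher, 6 lower), 43 with one prior spread (37 higher, 6 lower), and 273 with group means rescaled to the total (146 higher, 127 lower). Without a minimum mean there were 94 higher and 59 lower. Of the other guidance genes, 0 were called without moderation or with one prior spread, and 1 was called with robust moderation, with a minimum mean of 50 and with no minimum mean, against 2. Members past the fold numbered 9 at a threshold midway between no difference and 1.5-fold and 0 at 2-fold, against 2 at 1.5-fold. The share of all tested genes was computed at 1.5-fold only (9.4%), so the other counts have no background. Members with groups apart numbered 5 with no tolerance, 3 at 2% and 0 at 5%. Without the highest library, 18 of 47 members may change sign. The 5 that stood apart cannot change sign because their groups do not overlap, so their unchanged sign adds no support. No paired analysis was possible because no source used here pairs the mice. Leaving out each sample and limma on single samples were not run, because the columns of values per sample match no label. The cause of these differences was not tested. Only 2 controls limit every interval.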

Other observations

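Some members are neighbours in the genome (GRCm39). *Sema3d* and *Sema3a* lie 536 kb apart on chromosome 5, with log2 ratios of 0.46 and −0.26. *Sema3b* and *Sema3f* lie 72.2 kb apart on chromosome 9, with log2 ratios of −0.17 and 0.26. *Plxnb3* and *Plxna3* lie 557 kb apart on chromosome X, with log2 ratios of −0.39 and 0.32. In each of these pairs the ratios had opposite signs, and the difference within a pair was not tested.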
